A study of Xenopus tropicalis with 13 samples.

Results

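Forebrain and eye field regulators are described here in gastrulae and neurulae of the frog Xenopus tropicalis, with and without depletion of the RNA-binding protein Taf15. The set holds 8 genes, of 3270 gene identifiers listed in the authors' deposited tables for a change in level or in the use of a gene segment. They are the homeobox genes vax1, vax2, six6, lhx5, lhx9 and meis1, the orphan nuclear receptor gene nr2e1, and dmrta2, which encodes a DM-domain factor. The genes were chosen by their function and by being listed in these tables, so the deposited changes that put them there are given as a description and no test is built on them. Whole single embryos were measured by sequencing of polyadenylated RNA, 13 in all. At stage 10, the start of gastrulation, there were 3 uninjected embryos and 3 injected with a morpholino antisense oligonucleotide (MO) meant to deplete Taf15. Stage 15, an early neurula with a folding neural plate, had 4 uninjected embryos and 3 that were MO-injected. The labels give no genotype or strain for any group, no dose, and no name for the MO, and the series design mentions both translation-blocking and splice-blocking reagents. No group given an unrelated or mismatch MO was analysed here, so an effect of Taf15 loss and an effect of injection cannot be told apart. The gene taf15 itself was in none of the tables, which therefore hold no check of the depletion.

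In the vertebrate neural plate, the eye field is a group of cells at the front that express a set of transcription factors together, and it later splits into left and right eyes flanked by the telencephalon and the diencephalon. The members are transcription factors of that region. Six6 acts in the eye field and in retinal progenitors, and Nr2e1, also called Tailless, is an eye field factor in Xenopus and keeps neural stem cells dividing in the mouse. Vax1 and Vax2 set up the optic stalk and the ventral part of the retina. Lhx5 and Lhx9 are LIM homeodomain proteins of the forebrain, Dmrta2 acts in the telencephalon and the olfactory system, and Meis1 is a DNA-binding partner of Pbx and Hox proteins that is also needed in the developing eye.

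Gene level was given in the authors' deposited tables as a log2 fold change between MO-injected and uninjected embryos with its standard error, and positive values are read here as higher in MO-injected embryos. At stage 15, 7 of the 8 genes were listed and 6 of these were lower in MO-injected embryos, while lhx5 was higher. The list holds only genes past an adjusted p of 0.1 and at least 2-fold, which at most about 13.2% of the genes tested reached, and 54.9% of all 2094 listed genes were lower. At stage 10, only nr2e1 and dmrta2 were listed, and one was lower and the other higher. That list takes in changes under 2-fold, holds at most about 2.18% of the genes tested, and 56.5% of its 292 genes were lower. The gene meis1 was in neither level table and was listed for 1 gene segment at stage 15. Absence from a list does not show that a gene kept its level. The level tables give summaries over embryos and no value for each embryo. Whole embryos were measured, so fewer forebrain cells and less RNA per cell cannot be told apart.

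**Figure D1:**
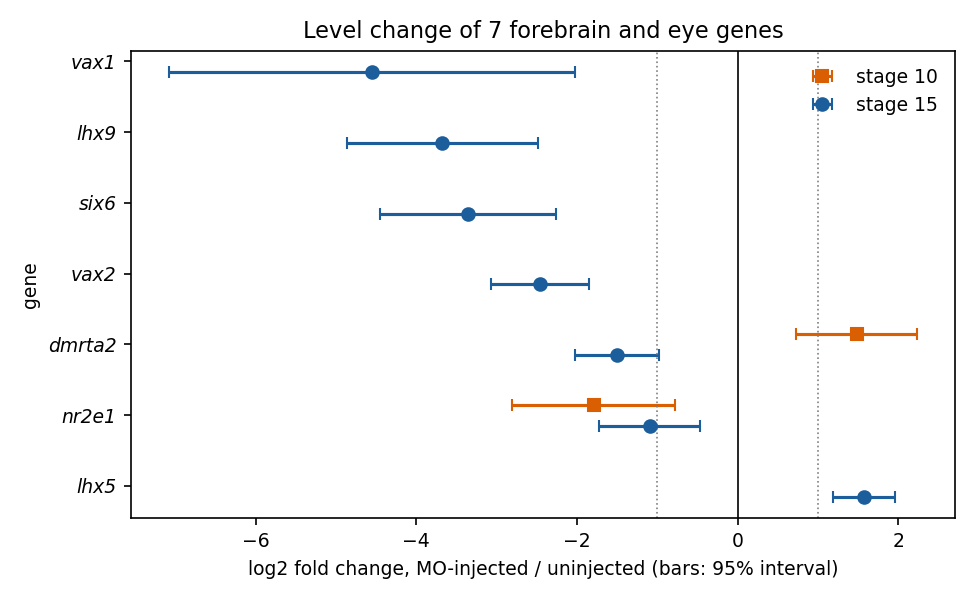
Log2 fold change of the 7 genes listed for level, MO-injected over uninjected, in the authors' deposited tables (squares, stage 10; circles, stage 15; bars, 95% intervals from the deposited standard error; dotted lines, 2-fold). The stage 15 values run from -4.56 for vax1 to 1.57 for lhx5, and dmrta2 lies on opposite sides of 0 at the 2 stages.

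The genes of the optic stalk and ventral retina were both lower at stage 15. The log2 fold change of vax2 in the authors' deposited table was -2.45 (adjusted p = 4.32e-13, SE 0.311), which is a level 5.48-fold lower, with a 95% interval of 3.59-fold to 8.36-fold from the deposited error. Its relative vax1 had a log2 fold change of -4.56 (adjusted p = 0.00389, SE 1.29) in the authors' deposited table, the largest decrease of the set. The 95% interval of vax1 ran from 4.07-fold to 136-fold lower. Few reads underlie this gene, since its mean normalised count over embryos of both stages was 4.24 in the authors' deposited table, the 33rd lowest of the 2094 listed genes. That of vax2 was 84.0. The size of the change in vax1 is therefore known only loosely, and its interval overlapped that of vax2. Neither gene was listed at stage 10.

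The eye field genes six6 and nr2e1 were both listed as lower at stage 15. In the authors' deposited table of stage 15, six6 had a log2 fold change of -3.36 (adjusted p = 9.81e-08, SE 0.561), a level 10.3-fold lower with a 95% interval of 4.79-fold to 22.0-fold. Among the 1150 lower genes of that table it ranked 98th by size of change. The gene nr2e1 was lower at stage 15 by 2.13-fold in the authors' deposited table (log2 fold change -1.09, SE 0.320, adjusted p = 0.00542). This is the member closest to the 2-fold limit of the list. Of the members only meis1 is not in that list, and its level change is unknown because the table leaves out genes outside its limits. The intervals of six6 and nr2e1 did not overlap at this stage. Both genes were selected on these values, and a difference between them was not tested.

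The gene nr2e1 was also lower at the start of gastrulation, where six6 was not listed. Its log2 fold change in the authors' deposited table of stage 10 was -1.79 (adjusted p = 0.0369, SE 0.515), a level 3.46-fold lower with a 95% interval of 1.72-fold to 6.98-fold. On the log2 scale its 95% interval ran from -2.80 to -0.78 at stage 10 and from -1.72 to -0.47 at stage 15, and these overlap. Whether the decrease differed in size between the stages was not tested. Over embryos of both stages, the mean normalised count of nr2e1 was 59.4 in the authors' deposited tables, the 16th lowest of the genes listed at stage 10. The level of nr2e1 at stage 10 alone cannot be read from this mean.

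The telencephalic gene dmrta2 was higher at stage 10 and lower at stage 15. Its log2 fold change in the authors' deposited tables was 1.48 at stage 10 (adjusted p = 0.0126, SE 0.385) and -1.50 at stage 15 (adjusted p = 8.15e-07, SE 0.269). These are levels 2.80-fold higher and 2.83-fold lower, with 95% intervals of 1.66-fold to 4.72-fold and 1.97-fold to 4.08-fold. The gene was selected by the authors' limits at each stage, so these values are set side by side with no test of their difference. Of 53 genes that the authors listed for both stages, 7 changed direction, and dmrta2 was among them. The stages were compared through separate embryos, each stage with its own uninjected group. The mean normalised count of dmrta2 was 181.6 in the authors' deposited tables, and since it is a mean over both stages, the level at stage 10 alone cannot be read from it.

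The LIM homeobox genes went in opposite directions at stage 15. The gene lhx9 had a log2 fold change of -3.67 in the authors' deposited table (adjusted p = 6.52e-08, SE 0.606), a level 12.8-fold lower with a 95% interval of 5.60-fold to 29.1-fold. In contrast, lhx5 had a log2 fold change of 1.57 (adjusted p = 1.17e-13, SE 0.195), a level 2.97-fold higher with a 95% interval of 2.28-fold to 3.88-fold, in the authors' deposited table. Its standard error was the smallest of the set, and many reads underlie it, with a mean normalised count over both stages of 2391. For lhx9 this count was 22.0, and these counts are not corrected for gene length, so they do not rank the genes by level. The interval of lhx5 overlapped none of the intervals of the other 6 listed genes. This follows from its direction alone, since no gene of that list has a 95% interval that reaches 0. Neither LIM gene was listed at stage 10.

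Among the 6 lower genes, the order of the stage 15 changes from largest to smallest was vax1, lhx9, six6, vax2, dmrta2 and nr2e1. Each gene's 95% interval overlapped that of its neighbour in this order. Of the 15 pairs that these 6 genes form, 9 had overlapping intervals, and the interval of nr2e1 overlapped that of dmrta2 and no other. The intervals of lhx9 and six6 lay wholly below those of dmrta2 and nr2e1. These overlaps describe values on which the genes were selected, and differences between the genes were not tested. In the authors' deposited table the median log2 fold change of the 7 listed members was -2.45 and that of all 2094 listed genes was -1.07, in a list with no value between -1 and 1. Since 54.9% of all listed genes were lower, the latter median lies at the edge of this gap and is not a typical decrease. Among the 1150 lower genes, the 6 members ranked 31st, 73rd, 98th, 230th, 624th and 1031st by size of change, in the order given above.

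**Figure D2:**
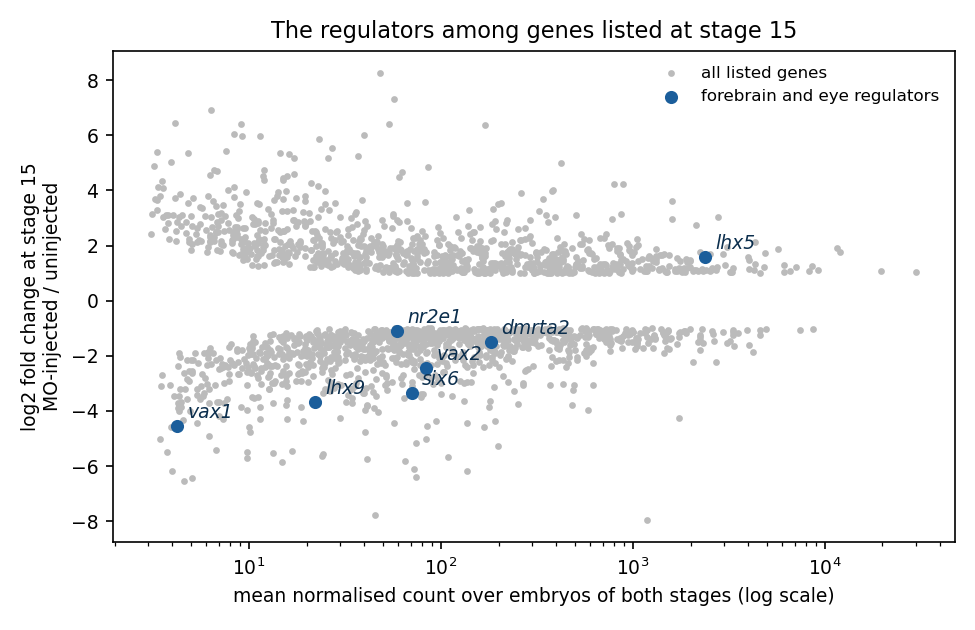
Log2 fold change at stage 15, MO-injected over uninjected, against the mean normalised count over embryos of both stages (log axis) for all 2094 genes in the authors' deposited table (grey) and the 7 listed regulators (blue). The gap between -1 and 1 is the 2-fold limit of the list, lhx5 stands at a mean of 2391 above the gap, and vax1 stands at 4.24 near the left edge.

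For meis1 the deposited change concerned 1 bin, a stretch of the gene in which reads were counted separately. The bin, E003, was given on the plus strand of scaffold 5 from 95559016 to 95559193, 178 bases long, in the authors' genome build, whose name was not found in the labels or file headers. Whether it lies in an exon or an intron is not stated in the table. At stage 15 the 3 MO-injected embryos had 77, 52 and 74 raw reads in this bin, and the 4 uninjected embryos had 6, 2, 6 and 5. All MO-injected embryos were thus above all uninjected ones. The bin was selected for such a difference, and the embryo groups were also separated in 75.5% of the 1429 listed bins.

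The mean raw count was 67.7 ± 13.7 (SD, n = 3) in MO-injected and 4.75 ± 1.89 (SD, n = 4) in uninjected embryos, a ratio of 13.0 on raw counts with a pseudocount of 0.5. On the log2 scale this is 3.70, beside a median of 2.72 over all 1429 listed bins, among which it ranked 321st. Raw counts are not corrected for the depth of each library, which is unknown. The authors' deposited usage scores are the fitted use of the bin in each condition, on a scale that is not stated, and are a different measure from raw counts. They were 12.7 in MO-injected and 3.47 in uninjected embryos, a ratio of 3.65 or 1.87 on the log2 scale (adjusted p = 3.04e-37). All listed bins were higher in MO-injected embryos, and their median log2 usage ratio was 1.75 in the authors' deposited table, so the ratio of the meis1 bin was close to the middle of the list (rank 643). By p it ranked 65th of 1429, and its mean raw count of 31.7 ranked 247th. Bins in the list make up at most about 0.744% of those tested. The authors attached a retention score to 56 of the listed bins, this one included, and do not state its meaning.

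**Figure D3:**
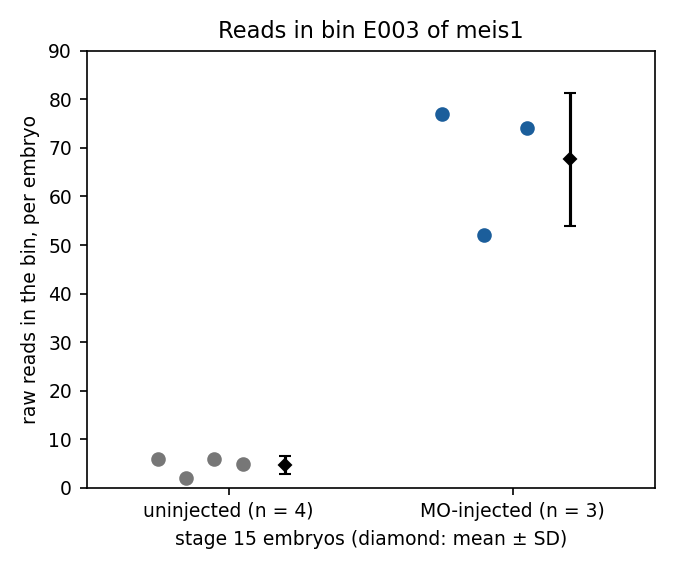
Raw reads per embryo in bin E003 of meis1 at stage 15, in 4 uninjected and 3 MO-injected embryos (points), with the mean and SD of each group (diamonds and bars). The MO-injected embryos lie between 52 and 77 reads and the uninjected embryos between 2 and 6.

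No bin of meis1 was listed at stage 10, and none of the other 7 genes had a listed bin at either stage. For comparison, 8.07% of all genes listed for level at stage 15 also had a listed bin. With so low a share, the absence of a listed bin for vax1, vax2, six6, lhx5, lhx9, nr2e1 and dmrta2 says little about these genes.

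The regulators were then placed among other genes of the same region. Lists of eye field and retina, optic stalk and ventral forebrain, telencephalon, and diencephalon genes together held 69 genes, the 8 members included. At stage 15, 19 of the 69 were in the authors' deposited table, 14 lower and 5 higher, with a median log2 fold change of -1.50. Leaving out the members, 12 of 61 were listed, 8 lower and 4 higher, with a median of -1.40. Of all genes tested, at most about 13.2% were in this table, and the members were chosen from it. The lists themselves were drawn up with earlier results of these data known, so their counts are a description. At stage 10 none of those 61 genes was listed. Lower genes made up 66.7% of the 12, against 54.9% of all listed genes, and no test of this share was made.

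Of the eye field and retina list, 8 of 26 genes were listed at stage 15 in the authors' deposited table, 7 lower and 1 higher. The 7 include the members six6, lhx9 and nr2e1, which were listed by choice. Of all genes tested, at most about 13.2% were listed, and 54.9% of all listed genes were lower. The largest decrease in the list was that of vsx1, a homeobox gene of retinal interneurons, with a log2 fold change of -4.35 (adjusted p = 2.46e-28, SE 0.372). The eye development genes mab21l2 (-3.05, SE 0.415) and mab21l1 (-2.96, SE 0.367) were lower as well. The gene six3, a close relative of six6 that acts earlier in the forebrain, was lower by less (-1.16, SE 0.268). The photoreceptor and anterior gene crx was the member of the list that was higher (1.50, SE 0.206). Of the other early eye field genes, rax, pax6, lhx2, tbx3 and otx2 were not listed under those symbols at either stage.

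All 4 listed genes of the optic stalk and ventral forebrain list, of 13, were lower at stage 15. The members among them, vax1 and vax2, were listed by choice, as were the members in the next 2 lists. Of all genes tested, at most about 13.2% were listed, and 54.9% of all listed genes were lower. Besides vax1, vax2 and six3 this was foxd1, a gene of the temporal retina (log2 fold change -1.73, SE 0.261, in the authors' deposited table). The genes pax2, nkx2-1 and shh of this region were not listed. In the telencephalon list, 6 of 21 genes were listed, 3 lower and 3 higher. Lower besides dmrta2 were the cortical gene emx1 (-1.50, SE 0.342) and the zinc-finger gene fezf1 (-1.31, adjusted p = 0.0863, SE 0.574) in the authors' deposited table, the latter being the closest of these genes to the limit on adjusted p. Higher besides lhx5 were the T-box genes tbr1 (2.54, SE 0.826) and eomes (1.33, SE 0.277) in the authors' deposited table, of which eomes is also a mesendoderm gene of the gastrula. In the diencephalon list, of which 5 of 18 were listed, the Wnt effector gene tcf7l2 (-3.80, SE 0.418) was lower with lhx9 and fezf1, and olig3 (2.03, SE 0.333) was higher with lhx5.

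**Figure D4:**
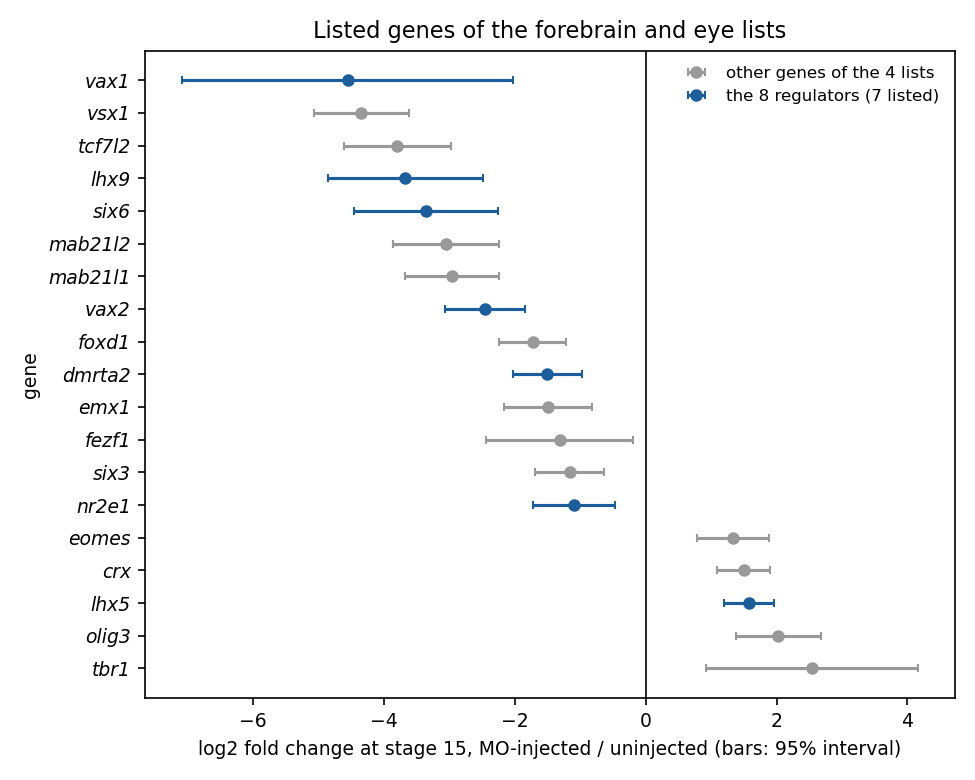
Log2 fold change at stage 15, MO-injected over uninjected, in the authors' deposited table for the 19 listed genes of the 4 forebrain and eye lists (blue, the listed regulators; grey, other genes; bars, 95% intervals from the deposited standard error). There are 14 genes left of 0 and 5 right of it, lhx5 being the regulator on the right.

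Close relatives of the members were counted too. Of 33 genes in their families, 10 were listed at stage 15, beside at most about 13.2% of all genes tested. Of these 10, 7 were members, listed by choice, and the others were six3, nr2f1 (-1.89, SE 0.450) and nr2f5 (-1.14, SE 0.231), all lower in the authors' deposited table. Nr2f1 and Nr2f5 are nuclear receptors of the COUP-TF group, related to Nr2e1. The genes pbx2 and pbx3, whose proteins bind DNA with Meis proteins, were not listed at either stage, nor were meis2 and meis3. By their pair of log2 fold changes at stage 10 and stage 15 in the authors' deposited tables, the genes with a symbol closest to dmrta2 were znf385b (1.46 and -1.39), jph1 (1.31 and -1.12) and timp3 (0.84 and -1.06), at distances of 0.11, 0.42 and 0.78 log2 units. Those closest to nr2e1 were cpne3 (-1.47 and -1.34), zfyve21 (-1.37 and -1.01) and c5 (-2.04 and -1.47), at distances of 0.41, 0.43 and 0.45 log2 units. These likenesses rest on 2 values per gene. The candidates were those with a symbol among the 53 genes listed at both stages, of which 7, dmrta2 included, changed direction.

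Markers of other tissues and of an earlier stage were listed beside the regulators at stage 15. For comparison, at most about 13.2% of all genes tested were listed at this stage, and 54.9% of all listed genes were lower. Of 16 pan-neural genes, 3 were listed in the authors' deposited table and all were lower, namely sox1 (-1.67, SE 0.447), sox21 (-1.25, SE 0.198) and tubb2b (-1.07, SE 0.324). Of 10 muscle genes, 5 were listed, 4 lower and 1 higher. Their log2 fold changes ran from -7.96 for myh4 to 1.73 for acta1 in the authors' deposited table. The gene acta1 also had 2 listed bins. Whether reads of near-identical actin genes enter its value was not tested. The other listed muscle genes were tnnc2 (-3.85, SE 0.526), tnnt3 (-1.22, SE 0.173) and mylpf (-1.07, SE 0.332), which encode parts of the contractile filaments. Of 9 epidermal genes, itln1 alone was listed, at -1.22 (SE 0.440) in the authors' deposited table. A list of 24 mesendoderm and organizer genes of the gastrula had 10 listed members, all higher, from 1.05 for chrd to 3.17 for sia2, with a median log2 fold change of 1.79 in the authors' deposited table. That list was added after the tables had been seen, so its direction is a description. The other lists were drawn up with earlier results of these data known, and their counts are a description too. The part of these changes, or of a difference in developmental timing, in the values of the regulators was not tested. At stage 10, the authors' deposited table held 2 of the 16 pan-neural genes, elavl3 (-1.0, SE 0.279) and sox21 (-0.82, SE 0.216), both lower. Of the members listed at that stage, nr2e1 was lower and dmrta2 higher. The stage 10 table held at most about 2.18% of the genes tested, and 56.5% of its genes were lower. The same table held 3 of the 9 epidermal genes, foxi1 (-2.74, SE 0.561), dlx3 (-1.98, SE 0.451) and tp63 (-1.01, SE 0.327), all lower. Of the 24 genes of the gastrula list it held 2, foxh1 (0.89, SE 0.193) and wnt8a (-0.91, SE 0.292). Besides meis1, the genes of these lists with a listed bin were pax3 with 3 bins, acta1 with 2, and grhl1 and ncan with 1 each, all at stage 15. For comparison, 1046 genes in all had a listed bin at that stage, and 8.07% of the genes listed for level had one.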

How the data were processed

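Polyadenylated RNA of single whole embryos was sequenced. Bowtie, Cuffdiff, Cufflinks, DESeq, DESeq2 and TopHat are the tools listed, without role or version, per the submitters' processing notes. Build and annotation: not given in the sources used here. Per the file headers, the authors deposited for each listed gene a mean normalised count (a signal, equal at both stages for all 53 shared genes), a log2 fold change and its standard error, a statistic (a score), a p-value and an adjusted p, and for each listed bin raw counts per embryo, usage scores, a log2 usage ratio and p-values. The usage ratio was turned to MO-injected over uninjected. The level tables name no direction. It was taken from the raw bin counts, whose log2 ratio correlated with the deposited fold across genes (Spearman's rho 0.709 over 11 genes and 0.699 over 169 genes, genes not being independent replicates). The count columns of the stage 15 bin table are named for stage 10 but are 4 for uninjected embryos, as at stage 15, to which they were assigned. The labels tie no column to an embryo. Of the uninjected embryos, 1 whose title says stage 15 and whose description says stage 10 was counted with stage 15. Stage 15 titles come in 2 styles, each used for both groups, and no such batch could be modelled.

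Since the tables hold selected items, no model was refitted, no test was made, and adjusted p-values are the authors'. Intervals are 95% normal intervals from the standard error. They take no account of the selection of genes by limits on the same values, so the sizes of change may be overstated. The number of genes or bins tested (at least about 13372 genes at stage 10, 15917 genes and 192075 bins at stage 15) follows from the Benjamini-Hochberg relation of p and adjusted p, a step that was tested on simulated data. All members, the listed genes of the lists and, for members listed at both stages, the 3 nearest genes are named, except that of the added gastrula list at stage 15 only the ends of the range are. Members and lists were chosen with earlier results of these data known. Some genes of the lists are not reported here and were left out of the counts. Lists were matched by symbol, and 67 of the 69 forebrain and eye symbols are in RefSeq's table for UCB_Xtro_10.0. The depth of each library is unknown, and embryos of a group are separate animals. Values were computed with pandas 2.3.3 and scipy 1.17.1.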

Additional observations from a re-analysis of the deposited data

How the results depend on the processing

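Recomputed under 56 alternatives, 55 values were labelled as close to the reported ones, a label that also took in the lower counts of members given next. With adjusted p limits of 0.05 and 0.01 the 6 lower members at stage 15 remained 6, which their adjusted p of at most 0.00542 fixed in advance. With a mean normalised count of at least 10 or 50 they were 5 and 4, since vax1 and then lhx9 drop out. At stage 10 the 2 listed members remained at 0.05, and 0 remained at 0.01, by the construction of the stricter limit. The share of lower genes among all listed genes ranged from 56.5% to 60.0% at stage 10 and from 54.9% to 57.0% at stage 15. Matching by synonym left the forebrain and eye counts at 14 lower and 5 higher. It changed the number of lower muscle genes at stage 15 from 4 to 5. With a mean normalised count of at least 10, the forebrain and eye counts were 13 lower and 5 higher. The lower genes then fell from 4 to 3 in the optic stalk list and from 9 to 8 among the relatives, as vax1 drops out. The log2 ratio of raw counts of the meis1 bin was 3.70, 3.58 with a pseudocount of 1, 3.63 with medians, and between 3.47 and 3.86 when 1 of the 7 embryos was left out. The bin was selected on these counts, in which the groups do not overlap, so leaving out 1 embryo could not bring them together. No paired analysis was possible because the deposited tables hold selected summaries and tie no column to an embryo's label. Leaving out an embryo could not be done for gene levels, for which only summaries were used. The search of promoter and protein sequences was not run, as no sequences were at hand. The mean normalised count of vax1, 4.24, is the lowest of the listed members, and the depth of the libraries is unknown.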

Other observations

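Genes that neighbour the regulators were looked up in the level tables. By gene order in RefSeq's table for UCB_Xtro_10.0, which was used for order only and looked at after the tables had been seen, the 3 protein-coding genes on each side of the 8 members made 48 neighbours, of which 3 were listed for level at stage 15 and 0 at stage 10. Of all genes tested, at most about 13.2% and 2.18% were listed at these stages, and the shares were not compared by a test. Neighbours were matched by symbol, and some have only a locus identifier. A neighbour under another name in the authors' annotation would be missed. Next to vax2, atp6v1b1, which encodes a subunit of the vacuolar proton pump, was lower (log2 fold change -1.99, SE 0.530, in the authors' deposited table). Next to lhx9, the kinase gene nek7 was lower (-1.24, SE 0.248) and also had a listed bin, as did sec63 near nr2e1, which was not listed for level. The third was dhrs7 near six6, at 2.19 (SE 0.290) in the authors' deposited table and so higher. In all, 1046 genes had a listed bin at stage 15, and 8.07% of the genes listed for level had one. The homeobox gene six4, which lies near six6, was not listed, nor were the T-box genes tbx3 and tbx5 beside lhx5. No neighbour of nr2e1, dmrta2, vax1, lhx5 or meis1 was listed for level under its RefSeq symbol.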
